A study of Mus musculus with 24 samples.

Results

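Liver RNA was examined for 7 genes of ketone body synthesis and export, namely Acat1, Bdh1, Bdh2, Oxct1, Slc16a1, Slc16a6 and Slc16a7. They were taken by name from a count table of 54532 genes and followed across 6 genotype groups of fasted mice. All 7 had 1 row each in the table. The question was how their mRNA stood in livers that can and cannot oxidise long-chain fatty acids, with and without Rab30.

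RNA-seq covered whole livers of 24 male mice aged 8 to 10 weeks, all fasted for 24 h, with 4 livers per group and 1 library per liver. Rab30KO mice lack exon 4 of Rab30 in every tissue, and Rab30 Ctrl mice are their littermate controls. Rab30L-/- and Cpt2L-/- mice carry floxed Rab30 or floxed Cpt2 with Cre under the albumin promoter, which deletes the gene in hepatocytes. DKO mice carry both floxed genes with the same Cre. In ff;ff mice the same alleles are floxed but no Cre is present, and they are littermates of the DKO, so Cre itself cannot be told apart from genotype in any comparison with ff;ff, nor breeding line in any comparison of a single knockout with ff;ff or DKO. Every group was fasted, so no comparison here shows a response to fasting.

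During a fast hepatocytes split fatty acids into acetyl-CoA inside mitochondria and turn much of it into acetoacetate and beta-hydroxybutyrate. Acetyl groups are joined by thiolases, the product is converted to acetoacetate, and beta-hydroxybutyrate dehydrogenase reduces acetoacetate to beta-hydroxybutyrate. Ketone bodies leave the cell through proton-linked monocarboxylate carriers of the Slc16 family and are burned in muscle, heart and brain, where Oxct1 activates them. Cpt2 (carnitine palmitoyltransferase of the inner mitochondrial membrane) is needed before long-chain fatty acids can be oxidised in mitochondria. Rab30 is a small GTPase of membrane traffic.

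The upstream sequences of Slc16a1 and Bdh2 are given because these were the members with a RefSeq window (GRCm38.p6) that passed the test in opposite directions between Cpt2L-/- and ff;ff livers. Each shows the 250 bases before the start of the gene, 5′ to 3′ on the plus strand, in lower case, with the letters CACGTG in capitals.
Slc16a1 (chr3:104638414-104638663): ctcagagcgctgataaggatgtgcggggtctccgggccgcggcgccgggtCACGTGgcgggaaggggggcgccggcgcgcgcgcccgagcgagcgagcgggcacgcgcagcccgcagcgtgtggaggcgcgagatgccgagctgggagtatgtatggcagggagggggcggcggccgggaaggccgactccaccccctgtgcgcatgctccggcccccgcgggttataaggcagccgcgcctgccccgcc
Bdh2 (chr3:135280971-135281220): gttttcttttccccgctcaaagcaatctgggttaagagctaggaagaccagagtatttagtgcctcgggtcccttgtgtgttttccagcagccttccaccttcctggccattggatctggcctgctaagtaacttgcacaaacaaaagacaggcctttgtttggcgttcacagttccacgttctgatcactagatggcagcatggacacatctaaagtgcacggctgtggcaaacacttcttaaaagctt

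Of these stretches, that of Slc16a1 was 76.4% G and C and that of Bdh2 48.0%, against a median of 52.4% over all 32851 windows. CACGTG, the core of many E-boxes, begins 200 bases before the RefSeq start of Slc16a1, which differs by a few bases from the GENCODE start given with its values, and is found in 6.02% of all windows. Windows were matched for 4 of the 7 genes (Slc16a1, Bdh2, Oxct1 and Bdh1, which has 2). Besides CACGTG they were searched on both strands for AGGTCA (14% of all windows), for AGGTCA repeated with 1 base between (0.0335%) and for TGACGTCA (1.55%), and none of the 5 member windows held these. Acat1, Slc16a6 and Slc16a7 were named only.

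The libraries held 11801027 to 24497738 counts. Counts over the whole Rab30 and Cpt2 genes did not follow all labels. Rab30 was at 102 to 232 CPM (read counts scaled to a common library size by TMM) in the libraries labelled DKO, above the 26.4 to 45.5 CPM of those labelled ff;ff, and in Rab30KO livers, at 5.47 to 17.1 CPM, it lay within the range of Rab30 Ctrl livers (6.53 to 29.8 CPM) or below. In the libraries labelled Rab30L-/- Rab30 was lower than in ff;ff, as the label says, at 10.2 to 26.5 CPM, with the ranges just overlapping. Cpt2 was at 94.9 to 165 CPM in the libraries labelled Cpt2L-/- around the 129 to 142 CPM of those labelled ff;ff, while in those labelled DKO it was lower, at 97.1 to 125 CPM, and in those labelled Rab30L-/- it was above all ff;ff libraries, at 169 to 271 CPM. A count over a whole gene includes exons that were not deleted, so the groups below are those given by the labels, and every direction stands for libraries labelled so. The hepatocyte transcript Alb was at 27527 CPM or above in every library. Markers of muscle and fat cells stayed near 0, with Myh7 at 0 in all libraries and Adipoq at most at 0.844 CPM. In whole liver, fewer cells of a type and less RNA per cell cannot be told apart.

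Compared per length, as the authors' FPKM (fragments per kilobase of transcript, scaled for library size), the members fell into 3 tiers. Acat1 was the most abundant, at a group mean of 104 to 150 FPKM, followed by Bdh1 at 38.4 to 69.0 FPKM. The carriers Slc16a1 and Slc16a7 came next, at 8.09 to 22.8 and 8.36 to 14.4 FPKM. Slc16a6, Oxct1 and Bdh2 were low, at group means of 0.517 to 1.40, 0.720 to 2.11 and 0.367 to 2.12 FPKM. Within the low tier the order turned with Cpt2. In the 4 groups with Cpt2 intact Bdh2 ranked 5 of 7 and Slc16a6 ranked 7, while in Cpt2L-/- and DKO livers Slc16a6 ranked 5 and Bdh2 ranked 7. TPM values recomputed from the counts kept the order of all members in 5 of 6 groups, and in Rab30KO they exchanged Bdh2 and Oxct1.

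**Figure D1:**
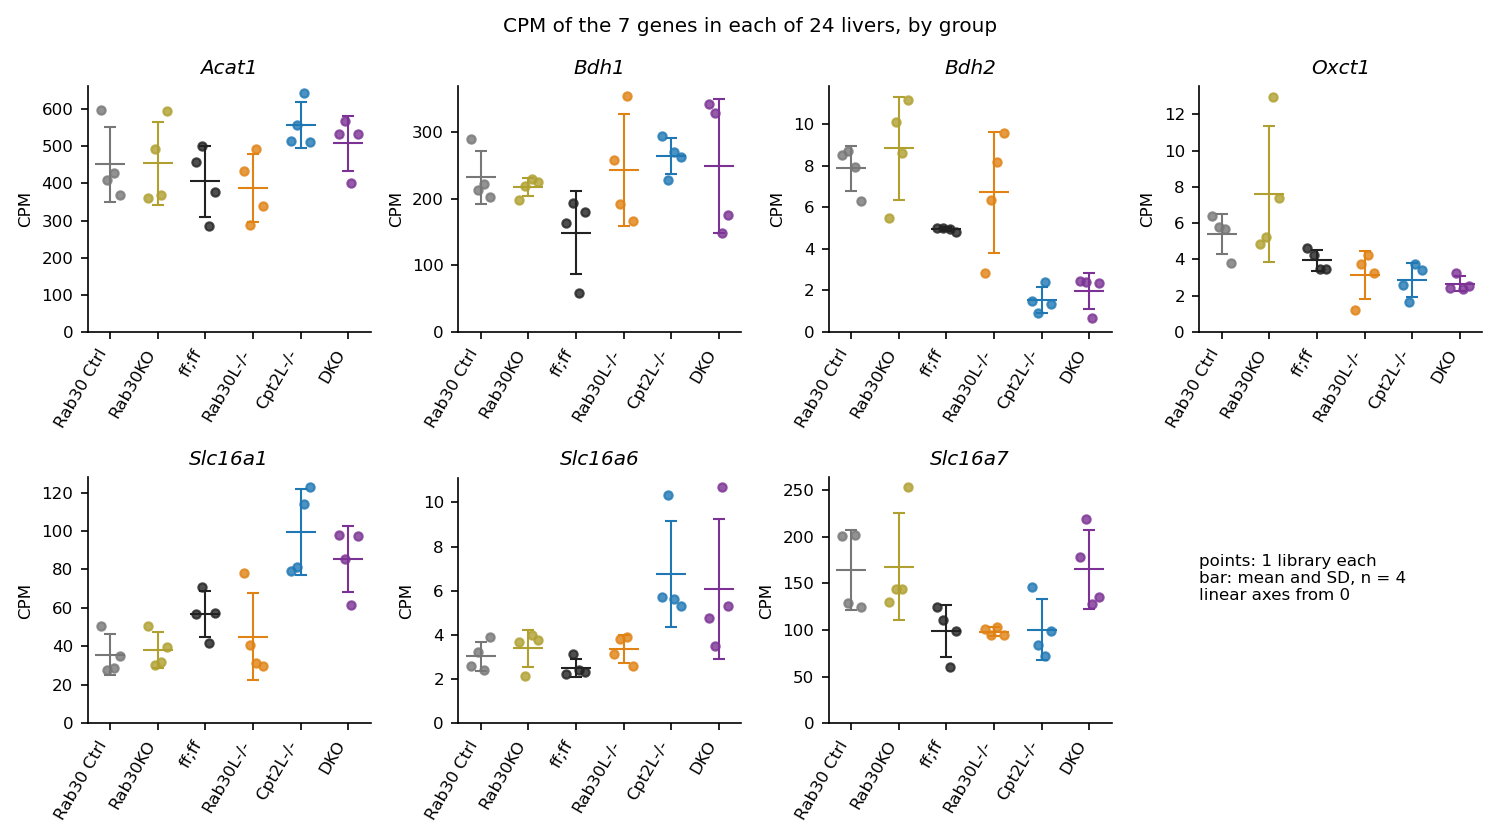
CPM of each of the 7 genes (vertical axes, linear from 0) in the 4 livers of each of 6 groups (horizontal axes), with the group mean and SD as bars. Bdh2 was at most at 2.45 CPM in all Cpt2L-/- and DKO livers and at least at 2.83 CPM in all others, while Slc16a1 had its highest group means, 99.3 and 85.6 CPM, in those groups.

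The loss of Cpt2 was compared in livers with Rab30 (Cpt2L-/- against ff;ff) and without it (DKO against Rab30L-/-), which share no library. Bdh2 had the largest fold change of the members in both, 3.17- and 3.47-fold lower, while the carriers Slc16a1 and Slc16a6 passed the test as higher in Cpt2L-/- livers and Slc16a7 in DKO livers. Slc16a1 and Slc16a6 were also higher in DKO than in Rab30L-/- livers, by 0.90 and 0.83 on the log2 scale, but did not pass (adjusted p = 0.052 and 0.078). Whether the change with Cpt2 loss depended on Rab30 was tested as an interaction, which none of the 7 members passed. The mitochondrial enzymes of synthesis among the members, Acat1 and Bdh1, did not pass the test in either comparison, and Bdh1 in Cpt2L-/- livers missed it narrowly. A gene was called changed at an adjusted p under 0.05 (edgeR, Benjamini-Hochberg over all genes tested) and a change of at least 1.2-fold. Between Cpt2L-/- and ff;ff, 2 of the 7 members were called higher and 1 lower, where 11.9% of 13270 genes were called higher and 11.9% lower. The median log2 fold change of the members was 0.47, against a median near 0 (-0.0035) over all genes. Between DKO and Rab30L-/-, 1 member was called higher and 1 lower, where 14.9% of 13292 genes were higher and 15.8% lower, and the members' median was 0.37 against -0.012 over all genes.

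Acat1 (ENSMUSG00000032047, GENCODE M21, GRCm38, chromosome 9 from 53580522 to 53610382, minus strand) is the mitochondrial acetoacetyl-CoA thiolase that opens the pathway. It was at 457, 502, 286 and 377 CPM in ff;ff replicates 1 to 4, and at 515, 557, 645 and 511 CPM in Cpt2L-/-. The ranges did not overlap, yet the gap between the groups was narrow beside the spread within ff;ff. The log2 fold change was 0.47 (SE 0.18, adjusted p = 0.078) and was not called. DKO livers were at 532, 568, 401 and 533 CPM and Rab30L-/- livers at 433, 288, 492 and 338 CPM, which overlapped, with a log2 fold change of 0.37 (SE 0.18, adjusted p = 0.141).

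Bdh1 (ENSMUSG00000046598, chromosome 16 from 31422280 to 31458901, plus strand) is the mitochondrial dehydrogenase that makes beta-hydroxybutyrate. Its levels were 164, 194, 58.2 and 181 CPM in ff;ff and 295, 228, 271 and 264 CPM in Cpt2L-/-. All Cpt2L-/- livers were above all ff;ff livers, and ff;ff replicate 3 was the lowest of the 24. The log2 fold change of 0.84 (SE 0.30, adjusted p = 0.063) missed the threshold, and without ff;ff replicate 3 it was 0.58 and passed (adjusted p = 0.012). It was also called by DESeq2's Wald test (adjusted p = 0.023) and by limma-voom (adjusted p = 0.042). In Rab30L-/- livers Bdh1 was at 258, 193, 355 and 166 CPM. DKO livers split into 342 and 330 CPM in replicates 1 and 2 and 149 and 176 CPM in replicates 3 and 4, so the groups overlapped widely and the log2 fold change was 0.03 (SE 0.32, adjusted p = 0.963).

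Bdh2 (ENSMUSG00000028167, chromosome 3 from 135281221 to 135304426, plus strand) encodes a cytosolic dehydrogenase of the short-chain family that also accepts beta-hydroxybutyrate. It was at 4.99, 5.003, 4.96 and 4.81 CPM in ff;ff and at 1.47, 0.893, 2.43 and 1.36 CPM in Cpt2L-/-. Every Cpt2L-/- liver was below every ff;ff liver, on 14 to 38 reads per library against 56 to 83. Bdh2 fell by 1.66 on the log2 scale (SE 0.30, adjusted p = 0.0012), or 3.17-fold. The DKO livers, at 2.45, 2.41, 0.652 and 2.35 CPM, were again all below the Rab30L-/- livers, at 2.83, 6.33, 8.20 and 9.55 CPM. There it fell by 1.80 on the log2 scale (SE 0.44, adjusted p = 0.011). Rab30L-/- replicate 1 was the lowest of its group and the nearest to the DKO, and without it the log2 fold change was -2.05. Without DKO replicate 3, the lowest of the DKO livers, it was -1.50. The group means ± SD (n = 4) were 4.94 ± 0.0919 CPM in ff;ff, 1.54 ± 0.643 in Cpt2L-/-, 6.73 ± 2.92 in Rab30L-/- and 1.97 ± 0.877 in DKO. Bdh2 was the only member called in both comparisons, and it was called in each under all alternative settings run.

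Oxct1 (ENSMUSG00000022186, chromosome 15 from 4026383 to 4155344, plus strand) encodes succinyl-CoA transferase, which lets tissues burn ketone bodies and is known to be scarce in hepatocytes. Its counts were few, 16 to 185 reads per library. It was at 4.64, 4.22, 3.47 and 3.46 CPM in ff;ff, at 2.62, 1.66, 3.77 and 3.41 CPM in Cpt2L-/-, at 1.22, 3.73, 4.27 and 3.26 CPM in Rab30L-/- and at 2.45, 3.26, 2.35 and 2.54 CPM in DKO. The groups overlapped in both comparisons, with log2 fold changes of -0.44 (SE 0.28, adjusted p = 0.292) and -0.27 (SE 0.34, adjusted p = 0.589).

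Slc16a1 (ENSMUSG00000032902, chromosome 3 from 104638668 to 104658462, plus strand) is the widely expressed monocarboxylate carrier MCT1, which moves lactate and ketone bodies with protons. It was at 57.0, 70.9, 41.7 and 57.2 CPM in ff;ff and at 79.4, 81.2, 114 and 123 CPM in Cpt2L-/-, with no overlap. It rose by a log2 fold change of 0.83 (SE 0.19, adjusted p = 0.0076), or 1.77-fold. In DKO livers it was at 98.0, 85.6, 61.3 and 97.6 CPM, and in Rab30L-/- livers at 78.2, 41.0, 31.4 and 29.8 CPM. Rab30L-/- replicate 1 was well above the rest of its group and inside the DKO range. The log2 fold change of 0.90 (SE 0.31, adjusted p = 0.052) fell short of a call, and without that library it was 1.31 and was called (adjusted p = 7.0e-04). With all libraries it was called by DESeq2's Wald test (adjusted p = 0.0087) and limma-voom (adjusted p = 0.022).

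Slc16a6 (ENSMUSG00000041920, chromosome 11 from 109450855 to 109473598, minus strand) is the carrier MCT7, known to export beta-hydroxybutyrate from the fasted liver of zebrafish. It was at 2.23, 3.13, 2.41 and 2.31 CPM in ff;ff and at 5.74, 10.3, 5.62 and 5.33 CPM in Cpt2L-/-. All Cpt2L-/- livers were higher, and replicate 2 stood apart above the others. Slc16a6 rose by a log2 fold change of 1.43 (SE 0.27, adjusted p = 0.0019), or 2.69-fold. The DKO livers, at 4.76, 3.52, 10.7 and 5.33 CPM, overlapped with the Rab30L-/- livers, at 3.14, 3.81, 3.93 and 2.58 CPM. The log2 fold change was 0.83 (SE 0.33, adjusted p = 0.078) and was not called, and without DKO replicate 2, its lowest DKO liver, it was 1.02 and was called (adjusted p = 0.036). Without DKO replicate 3, its highest, it was 0.41 and was not called.

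Counts of Slc16a6 are uncertain, because its exons overlap those of Amz2 and Arsg on the opposite strand and the sources used here do not say whether counting used strand. Of the 50-base words of its transcripts, 21.2% were shared with transcripts of other genes, most of them with Amz2. Between ff;ff and Cpt2L-/-, Arsg stood at 23.96 to 34.6 and at 56.4 to 88.3 CPM, and Amz2 at 11.99 to 14.9 and at 15.7 to 19.9 CPM, so both neighbours were also higher without overlap. In DKO livers both were again above all ff;ff livers, Arsg at 54.0 to 59.0 and Amz2 at 15.7 to 22.6 CPM. In Rab30L-/- livers, where Slc16a6 was not called against ff;ff, Arsg was at 32.3 to 72.0 and Amz2 at 10.3 to 15.7 CPM. The part of both neighbours in the values of Slc16a6 was not tested. Of the same words, 11.1% of Bdh1 and 11.2% of Oxct1 were shared with antisense or noncoding transcripts that had at most 11 and 4 reads in a library, and Acat1, Bdh2 and Slc16a1 shared none.

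Slc16a7 (ENSMUSG00000020102, chromosome 10 from 125219270 to 125389465, minus strand) is the high-affinity carrier MCT2. It was at 125, 111, 60.6 and 99.2 CPM in ff;ff and at 146, 83.9, 72.0 and 99.4 CPM in Cpt2L-/-, which overlapped with 1 liver of each group outside the range of the other, with a log2 fold change of 0.04 (SE 0.25, adjusted p = 0.926). The Rab30L-/- livers were close together, at 101, 94.6, 104 and 94.3 CPM, and all DKO livers lay above them, at 178, 219, 128 and 136 CPM. Here Slc16a7 rose by a log2 fold change of 0.73 (SE 0.17, adjusted p = 0.0079), or 1.66-fold, a call that held under all alternative settings run. That it was called beside Rab30L-/- and not beside ff;ff does not show a difference between the comparisons. The test of that difference, the interaction, gave 0.69 on the log2 scale (SE 0.33, adjusted p = 0.230) for Slc16a7.

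**Figure D2:**
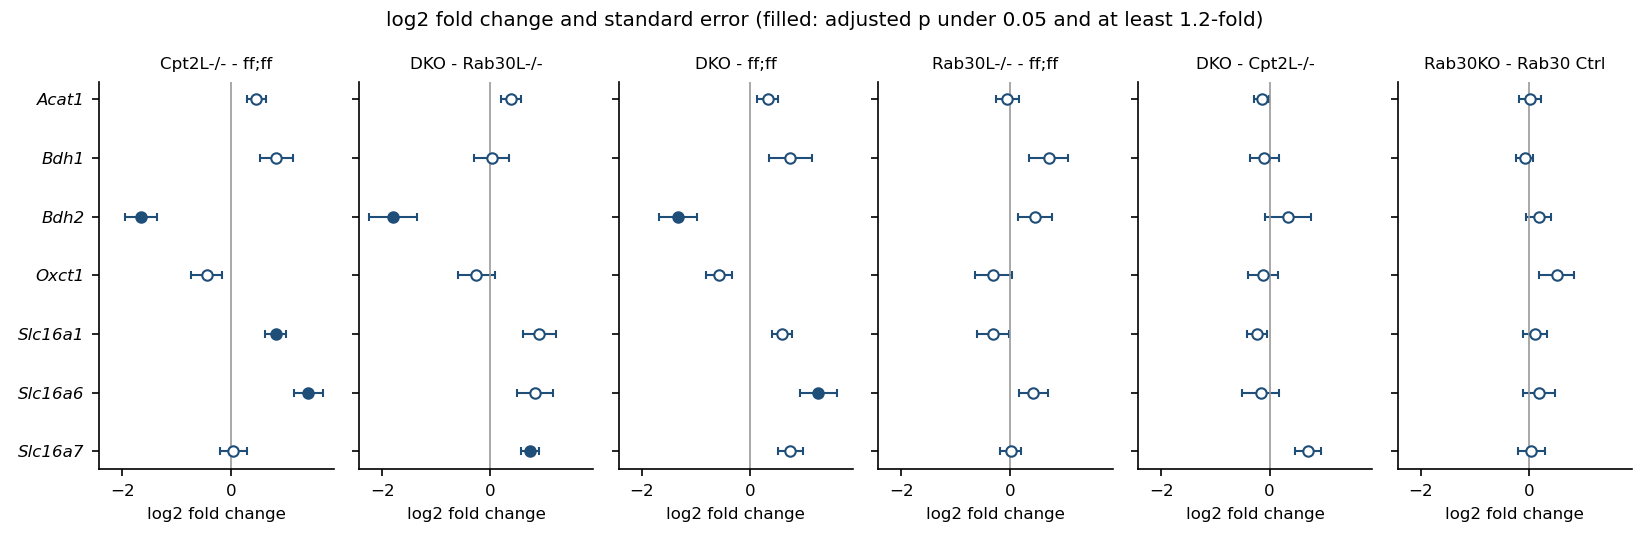
log2 fold change (horizontal axes, first group minus second, with the standard error) of the 7 genes (vertical axis) in 6 comparisons. Filled points passed the test. Bdh2 lies near -1.66, -1.80 and -1.33 in the 3 comparisons with Cpt2 loss, and no point is filled in the 3 comparisons whose groups differ in Rab30 and not in Cpt2.

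Loss of both genes was compared with the floxed controls (DKO against ff;ff), a comparison that shares its libraries with those above. Bdh2 was lower by 1.33 (log2, SE 0.34, adjusted p = 0.021) and Slc16a6 higher by 1.26 (log2, SE 0.34, adjusted p = 0.025). Thus 1 member was called higher and 1 lower, where 7.87% of 13389 genes were higher and 8.24% lower, and the members' median log2 fold change was 0.59 against -0.018 over all genes. For Slc16a7 the log2 fold change was 0.74 (SE 0.23, adjusted p = 0.0503), and all DKO livers were above all ff;ff livers. Slc16a1 stood at 0.59 (log2, SE 0.19, adjusted p = 0.052), and DKO replicate 3, at 61.3 CPM, lay within the ff;ff range. Oxct1 was lower in all DKO than in all ff;ff livers, with a log2 fold change of -0.58 (SE 0.24, adjusted p = 0.131). The values of Bdh1 and Acat1 were 0.74 (SE 0.40, adjusted p = 0.256) and 0.32 (SE 0.19, adjusted p = 0.293) on the log2 scale. The call of Slc16a6 rested on single libraries, for without DKO replicate 3, its highest, it was 0.83 (adjusted p = 0.077) and without ff;ff replicate 4 it was 1.22 (adjusted p = 0.072). Calls of Slc16a1 and Slc16a7 were gained by DESeq2's Wald test (adjusted p = 0.028 and 0.020), while limma-voom called neither and lost the call of Slc16a6 (adjusted p = 0.054).

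Loss of Rab30 in hepatocytes (Rab30L-/- against ff;ff) left the 7 genes without a call. Of 13367 genes 0.479% were called, and none of the members had an unadjusted p under 0.05 in edgeR or a call by DESeq2 or limma. Bdh1 had the largest value, with a log2 fold change of 0.72 (SE 0.36, adjusted p = 0.494), followed by Bdh2 at 0.47 (SE 0.31) and Slc16a6 at 0.43 (SE 0.27). Slc16a1 and Oxct1 were at -0.31 (SE 0.30) and -0.31 (SE 0.34), and Acat1 and Slc16a7 at -0.05 (SE 0.21) and 0.01 (SE 0.19). All 7 ranges overlapped between the groups.

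Rab30 loss on top of Cpt2 loss (DKO against Cpt2L-/-) gave no member call either, where 2.71% of 13306 genes were called. Slc16a7 alone had an unadjusted p under 0.05, with a log2 fold change of 0.70 (SE 0.24, adjusted p = 0.135). Cpt2L-/- replicate 1, at 146 CPM, was the only Cpt2L-/- liver inside the DKO range of Slc16a7, and without it the value was 0.94 and was called (adjusted p = 0.0495). The other members lay between -0.23 (Slc16a1, SE 0.18) and 0.34 (Bdh2, SE 0.42) on the log2 scale.

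In the whole-body knockout (Rab30KO against Rab30 Ctrl) 0.022% of 13656 genes were called, and none of the members, none of which had an unadjusted p under 0.05 in edgeR or a call by DESeq2 or limma. Oxct1 had the largest log2 fold change, 0.50 (SE 0.32), and rested on Rab30KO replicate 3. Its values were 4.84, 5.24, 13.0 and 7.39 CPM in Rab30KO and 6.37, 5.78, 5.66 and 3.82 CPM in Rab30 Ctrl, and without replicate 3 it was 0.11. The other 6 ranged from -0.08 (Bdh1, SE 0.16) to 0.18 (Slc16a6, SE 0.30), and all groups overlapped.

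The interaction asks whether the change with Cpt2 loss depended on Rab30. It was called for 4.06% of 14063 genes and for none of the 7 members. Apart from Slc16a7, the values were -0.81 for Bdh1 (SE 0.49, adjusted p = 0.356), -0.60 for Slc16a6 (SE 0.44) and between -0.13 and 0.18 for Bdh2, Acat1, Slc16a1 and Oxct1, on the log2 scale. Standard errors of 0.26 to 0.54 stood behind these values, so a p above the threshold does not show that the change was alike with and without Rab30. DESeq2's Wald test and limma-voom called none of the members either.

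The order of the groups by mean CPM set the 2 Cpt2-deficient groups first for Acat1, Bdh1, Slc16a1 and Slc16a6 and last for Bdh2 and Oxct1. Neighbouring groups in these orders overlapped in 33 of 35 cases. The exceptions were ff;ff and DKO for Bdh2, and Rab30KO and ff;ff for Bdh1, where all Rab30KO livers (199 to 230.0 CPM) were above all ff;ff livers. For Slc16a7 the order was different. Rab30KO, DKO and Rab30 Ctrl had means of 168, 165 and 164 CPM and Cpt2L-/-, ff;ff and Rab30L-/- had means of 100.4, 98.9 and 98.4 CPM. The Rab30 Ctrl livers are littermate controls of another line, and their Bdh2, 6.30 to 8.71 CPM, lay above that of all ff;ff livers, so Rab30KO was compared with them alone.

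The balance of the carriers was read from FPKM within each liver. In ff;ff the FPKM of Slc16a1 was 1.22 to 1.84 times that of Slc16a7, and in Cpt2L-/- it was 1.45, 2.59, 4.23 and 3.30 times. Cpt2L-/- replicate 1 was thus within the ff;ff range and the other 3 livers above it. In DKO livers, where Slc16a7 was higher, the ratio was 1.47, 1.04, 1.28 and 1.93, and in Rab30L-/- it was 2.07, 1.16, 0.810 and 0.845. Slc16a7 exceeded Slc16a1 in all 4 Rab30 Ctrl livers (ratio 0.386 to 0.756) and in 3 of 4 Rab30KO livers. Of the summed FPKM of the 3 carriers, Slc16a1 made up 69.0% ± 9.36 (SD, n = 4) in Cpt2L-/-, 59.4% ± 3.88 in ff;ff, 55.9% ± 6.25 in DKO and 51.0% ± 10.6 in Rab30L-/-.

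**Figure D3:**
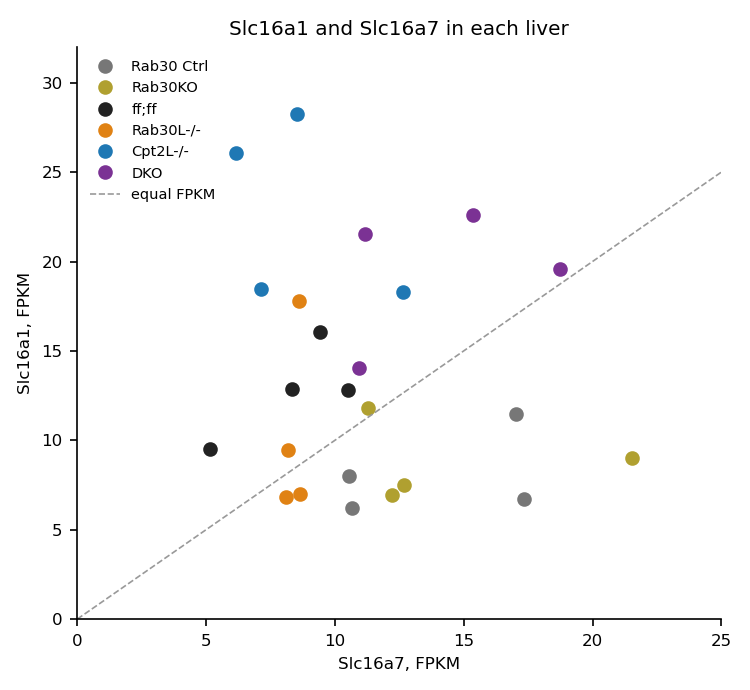
FPKM of Slc16a1 (vertical axis) against FPKM of Slc16a7 (horizontal axis), 1 point per liver, coloured by group, with a dashed line where they are equal. All Cpt2L-/-, DKO and ff;ff livers lie above the line, and all Rab30 Ctrl livers lie below it.

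Enzymes of acetoacetate and acetyl-CoA outside mitochondria were followed beside the members. Aacs, the cytosolic synthetase that returns acetoacetate to lipid synthesis, rose in Cpt2L-/- against ff;ff and in DKO against Rab30L-/-, by 0.87 (SE 0.26, adjusted p = 0.028) and 1.74 (SE 0.18, adjusted p = 8.3e-05) on the log2 scale. The first of these calls was lost without ff;ff replicate 4, Cpt2L-/- replicate 1 or Cpt2L-/- replicate 4, with values of 0.66 to 0.90. The interaction for Aacs was 0.88 on the log2 scale (SE 0.34, adjusted p = 0.147) and was not called, so a larger rise without Rab30 was not shown. With each of 16 libraries left out it was 0.76 to 1.09, and 1 of these fits changed the call. The cytosolic thiolase Acat3 fell by 2.20 on the log2 scale (SE 0.20, adjusted p = 1.0e-05) and by 2.09 (SE 0.30, adjusted p = 0.0010). Its relative Acat2 fell by 0.68 (SE 0.21, adjusted p = 0.031) in Cpt2L-/- and was at -0.38 (SE 0.15, adjusted p = 0.086) in DKO against Rab30L-/-. The call of Acat2 was lost by limma-voom and without any 1 of 6 libraries (ff;ff replicates 1, 2 and 4 and Cpt2L-/- replicates 2, 3 and 4). Acat2 and Acat3 are similar in sequence, so reads could be divided wrongly between them.

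In DKO against ff;ff, Aacs rose by 1.34 (log2, SE 0.25, adjusted p = 0.0040), Acat3 fell by 1.74 (log2, SE 0.29, adjusted p = 0.0027), and Acat2 was at -0.58 (log2, SE 0.21, adjusted p = 0.083). Aacs was at 8.03, 17.8, 17.6 and 15.95 CPM in ff;ff and at 37.6, 23.6, 19.7 and 26.9 CPM in Cpt2L-/-. Acat3 was at 106, 99.4, 75.4 and 90.2 CPM in ff;ff and at 19.3, 25.3, 22.6 and 12.9 CPM in Cpt2L-/-. Neither gene overlapped between these groups.

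Other members of the carrier family were counted by name. Of 15 carriers and chaperones 10 were tested, and in Cpt2L-/- against ff;ff 2 rose and 1 fell, where 11.9% of all genes rose and 11.9% fell, with a median log2 fold change of -0.23 against -0.0035 over all genes. Slc16a13 rose by 2.07 (log2, SE 0.30, adjusted p = 2.8e-04), Slc16a11 rose by 0.79 (log2, SE 0.25, adjusted p = 0.039), and Slc16a10, an aromatic amino acid carrier, fell by 0.95 (log2, SE 0.19, adjusted p = 0.0025). Slc16a13 was low, at group means of 1.85 CPM in ff;ff, 7.82 in Cpt2L-/-, 0.766 in Rab30L-/- and 5.85 in DKO. In DKO against Rab30L-/- Slc16a13 rose by 2.95 and Slc16a11 by 0.66 on the log2 scale, and Slc16a10 was at -0.12 without a call, and in all 2 of 10 rose and 2 fell, where 14.9% of all genes rose and 15.8% fell. The interaction for Slc16a10 was 0.84 (log2, SE 0.27, adjusted p = 0.084) and was not called, so a difference between the comparisons was not shown. In DKO against ff;ff only Slc16a13 was called of the 10 (7.87% of all genes were higher and 8.24% lower), with a log2 fold change of 1.63 (SE 0.32, adjusted p = 0.0051). Slc16a11 lost its call in Cpt2L-/- against ff;ff when any 1 of 6 libraries was left out (ff;ff replicates 1, 2 and 3 and Cpt2L-/- replicates 2, 3 and 4) and in DKO against Rab30L-/- when any 1 of 4 was left out (Rab30L-/- replicates 2, 3 and 4 and DKO replicate 1).

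Enzymes that supply acetyl-CoA to the pathway were listed as well. Of 15 enzymes of mitochondrial beta-oxidation, all tested, 7 rose and 0 fell in Cpt2L-/- against ff;ff (11.9% of all genes rose and 11.9% fell), with Hadha at 0.98 (SE 0.17), Hadhb at 0.88 (SE 0.15) and Acadl at 0.86 (SE 0.14) on the log2 scale, and 7 rose and 3 fell in DKO against Rab30L-/- (14.9% and 15.8% of all genes). Among those that fell was Cpt2 itself, the gene deleted in DKO livers, at -1.07 (log2, SE 0.15, adjusted p = 4.5e-04). Of 16 fasting targets of the fatty acid receptor Ppara, 11 rose and 0 fell in each of these comparisons, with median log2 fold changes of 1.87 and 1.98 against -0.0035 and -0.012 over all genes. Acot2 rose by 3.97 (SE 0.45), Pdk4 by 3.83 (SE 0.47) and Cidec by 3.52 (SE 0.28) on the log2 scale in Cpt2L-/- against ff;ff. In DKO against ff;ff the counts were 6 higher and 1 lower for beta-oxidation and 10 higher and 0 lower for Ppara targets, where 7.87% of all genes were higher and 8.24% lower.

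The levels of Bdh2 and of Oxct1, which was not called with Cpt2 loss, were set beside markers of liver macrophages (Kupffer cells). Some of these markers were called lower with Cpt2 loss. Of 8 such markers 3 fell and 0 rose in Cpt2L-/- against ff;ff, 7 fell in DKO against Rab30L-/-, and 4 fell in DKO against ff;ff. Of all genes, 11.9%, 15.8% and 8.24% fell in these comparisons, shares that serve for the other marker lists too. Their summed level was 150.04 to 213 CPM in Cpt2L-/-, 141 to 171 in DKO, 188 to 336 in ff;ff and 238 to 672 in Rab30L-/-, with none of the 8 at 0. In Rab30KO replicate 3, the liver with the highest Oxct1, the sum was 1327 CPM, above all other libraries. Their part in the values of Bdh2 and Oxct1 was not tested. Hepatocyte markers moved too, with 4 of 7 lower in Cpt2L-/- against ff;ff and 3 of 7 lower in DKO against Rab30L-/- and against ff;ff. Their summed level was 49746 to 58088 CPM in Cpt2L-/-, 67626 to 80861 in DKO, 84831 to 102390 in Rab30L-/- and 104210 to 137430 in ff;ff. Their part in the values of the members was not tested. Of the markers of other cells, 1 of 6 for sinusoidal endothelium fell in Cpt2L-/- against ff;ff, 1 of 6 rose in DKO against Rab30L-/- and 0 were called in DKO against ff;ff. For bile duct 1 fell and 0 rose in each of the 3 comparisons, of 4, 3 and 5 tested, and none of 6 stellate cell markers was called in these 3 comparisons. Lymphocyte markers summed to at most 6.11 CPM and neutrophil and monocyte markers to at most 14.1 CPM in any library.

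**Figure D4:**
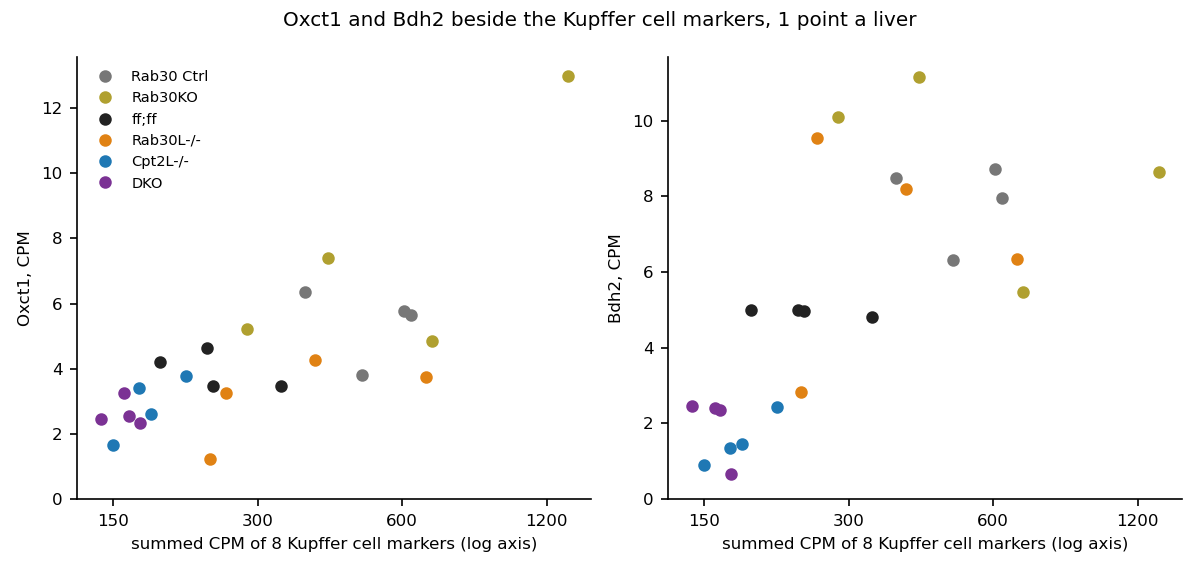
CPM of Oxct1 (left) and Bdh2 (right) on linear axes from 0 against the summed CPM of 8 Kupffer cell markers on log axes, 1 point per liver. Cpt2L-/- and DKO livers lie at sums of 141 to 213 CPM, and the highest Oxct1, 13.0 CPM, lies at the highest sum, 1327 CPM.

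Genes whose log2 CPM followed each member most closely over the 24 libraries were looked up by Pearson's r, as a description. The points share their genotype groups, so r is given also after the group means were taken out. Bdh2 ran with Sqor (r = 0.960, within groups 0.773), Gm48633 (0.943, 0.725) and Hsd3b2 (0.934, 0.623). Slc16a1 ran with Tmem56 (0.935, 0.815), Serinc2 (0.926, 0.788) and Tfdp1 (0.913, 0.762), and Slc16a6 with Arid5a (0.878, 0.731), Casz1 (0.874, 0.682) and Nt5e (0.865, 0.739). For Oxct1 these were Lsp1 (0.902, 0.813), Msn (0.879, 0.749) and H2-Aa (0.860, 0.690), of which Lsp1 and H2-Aa are known from leukocytes. Bdh1 ran with Paqr9 (0.812, 0.818), Dna2 (0.777, 0.747) and Acsf2 (0.740, 0.752), Acat1 with Gtpbp10 (0.870, 0.842), the peroxisomal enzyme Hsd17b4 (0.833, 0.916) and M6pr (0.827, 0.775), and Slc16a7 with Agmo (0.903, 0.860), Gm45909 (0.875, 0.871) and Rdx (0.847, 0.836).

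Among the members themselves r ranged from -0.826 for Bdh2 with Slc16a1 to 0.727 for Bdh2 with Oxct1 over the 24 libraries. Within groups the pair of Bdh2 and Slc16a1 was at -0.284, while Bdh1 with Acat1 stayed at 0.690 beside 0.648 over all libraries, and Bdh1 with Slc16a7 was at 0.647. In single livers this showed in ff;ff replicate 3, which had the lowest Acat1, Bdh1, Slc16a1 and Slc16a7 of its group, and in DKO replicate 3, which had the lowest of the same 4 genes and of Bdh2 and Oxct1 in its group and the highest Slc16a6.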

How the data were processed

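Liver RNA from 24 mice (6 groups of 4) was sequenced by Novogene. The submitters' processing notes name HISAT2, DESeq2 and GRCm38/mm10. The counter, the annotation and the use of strand are not given in the sources used here. The authors deposited raw counts per gene, not normalized, and FPKM. The deposited FPKM equal counts per kilobase over a library size that followed DESeq2 size factors and not the library totals. The authors also deposited normalized counts and tables of their own comparisons (log2 fold changes, p-values and adjusted p-values), which were not used.

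Tests used the counts as deposited. Genes were kept by filterByExpr, scaled by TMM, and fitted with edgeR 4.0.16 (R 4.3.3; glmQLFit with robust estimation, glmQLFTest) on the libraries of the groups compared, or on 16 libraries for the interaction. A call needed a Benjamini-Hochberg adjusted p below 0.05 with a change of 1.2-fold or more. CPM are after TMM over the 24 libraries. The methods state 4 biological replicates per genotype. Replicates differed by more than counting noise, with a chi-square per degree of freedom of at least 12.2. The test was tested on simulated data first.

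The members and gene lists were chosen with earlier results of these data known. Genes were named by rule: the 7 members, the tested enzymes on the ketone list (some are not reported here), up to 3 genes with the largest called changes in Cpt2L-/- against ff;ff from each of 3 further lists, Rab30, Cpt2, and the 3 genes most correlated with each member (log2 of CPM plus 1). Amz2 and Arsg were added after their values were seen, as overlapping genes. Markers of endothelial, stellate, bile duct and blood cells were counted as well. Alternatives were DESeq2 size factors, DESeq2's Wald test (1.42.0), limma-voom (3.58.1), a fit over 24 libraries, no filter on low counts, a minimum of 10 counts in each library, and each library left out. The spread between livers exceeded counting noise for all replicate pairs, and Bdh2, Oxct1 and Slc16a6 rested on 10 to 196 reads a library. Tables and plots used Python with pandas and matplotlib.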

Additional observations from a re-analysis of the deposited data

Results flagged for a closer look

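Among 42 sets of 4 livers (7 genes in 6 groups), 3 held a library whose gap to the nearest of the others, as a share of the group's range, passed Dixon's critical value for 4 samples (shares of 0.941, 0.917 and 0.885, in the order given here), which chance gives in about 1 in 20 sets. Bdh2 was at 0.652 CPM in DKO replicate 3 and at 2.35 to 2.45 CPM in the other DKO livers. Slc16a6 was at 10.3 CPM in Cpt2L-/- replicate 2 and at 5.33 to 5.74 CPM in the others of its group. Slc16a7 was at 254 CPM in Rab30KO replicate 4 and at 130 to 144 CPM in the others. No cause was tested for these.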

How the results depend on the processing

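The number of members called was 3 in Cpt2L-/- against ff;ff (3 to 5 with each library left out; 5 without ff;ff replicate 2, with Bdh1 and Acat1 added), 2 in DKO against Rab30L-/- (4 in the fit over 24 libraries, with Slc16a1 and Slc16a6) and 2 in DKO against ff;ff (4 by DESeq2's Wald test and without the filter, with Slc16a1 and Slc16a7, 1 by limma-voom, and 1 to 3 with each library left out). It was 0 in DKO against Cpt2L-/- (0 to 1 with each library left out) and 0 under all settings in Rab30L-/- against ff;ff, Rab30KO against Rab30 Ctrl and the interaction. Outside the libraries left out, 277 of the members' values kept their direction and side of the threshold, 16 gained a call, 1 lost it and 0 changed direction; with each library left out these numbers were 396, 11, 2 and 39. Under other tools, filters or fits the called genes went from 64 to between 25 and 298 in Rab30L-/- against ff;ff (23 to 93 with each library left out), from 360 to between 114 and 1032 in DKO against Cpt2L-/- (57 to 445 with each library left out), from 3 to between 0 and 10 in Rab30KO against Rab30 Ctrl (0 to 4 with each library left out) and from 571 to between 374 and 1080 in the interaction (300 to 679 with each library left out). The cause of these moves was not tested.

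With each library left out, direction changed for values near 0, none of them called. Their log2 ranges were -0.21 to 0.17 for Slc16a7 in Cpt2L-/- against ff;ff; -0.16 to 0.25 for Bdh1 in DKO against Rab30L-/-; -0.19 to 0.074 for Acat1 and -0.17 to 0.14 for Slc16a7 in Rab30L-/- against ff;ff; -0.30 to 0.080 for Bdh1, -0.32 to 0.029 for Oxct1 and -0.60 to 0.11 for Slc16a6 in DKO against Cpt2L-/-; -0.15 to 0.19 for Acat1, -0.14 to 0.053 for Bdh1, -0.064 to 0.33 for Slc16a1 and -0.235 to 0.16 for Slc16a7 in Rab30KO against Rab30 Ctrl; and -0.22 to 0.042 for Acat1, -0.38 to 0.18 for Bdh2, -0.076 to 0.37 for Oxct1 and -0.069 to 0.49 for Slc16a1 in the interaction. Among the further enzymes, Acat2 in Cpt2L-/- against ff;ff lost its call by limma-voom and without any 1 of 6 libraries, and Aacs without any 1 of 3. No paired analysis was possible because the labels give the groups no shared replicate numbers.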
